A study of Mus musculus with 9 samples.

Results

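Ubiquitin that RING1B places on histone H2A can be taken off again, and 8 genes for the enzymes that do so, or for their partners, were followed in mouse embryonic stem cells (mESCs) with and without RING1B ligase activity. The genes were Bap1, Asxl1, Asxl2, Asxl3, Usp16, Usp21, Usp22 and Mysm1, chosen by what their proteins do and kept if the series table held a probe for them by RefSeq accession, symbol or Ensembl gene. All 8 of 8 had a probe, out of 21713 genes in the table, and they were read by 12 of its 30170 probes. Asxl3 had 3 probes, Asxl2 and Usp16 had 2 each and the other genes had 1. Where a gene had several probes, the brightest over the 9 arrays stood for it and the others are given beside it.

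Transcripts were measured on 9 single-colour Agilent arrays, 3 for each of 3 lines of E14Tg2a mESCs, a male line of strain 129P2/OlaHsd grown in serum with the cytokine LIF on gelatin. The wild-type cells (WT) carry no targeted allele, the Ring1B-/- cells (KO) lack exon 3 of Rnf2, the gene for RING1B, on both alleles, and the Ring1B I53A/I53A cells (I53A) carry on both endogenous alleles a substitution that blocks contact with the E2 enzyme. Both mutant lines were derived from E14Tg2a by gene targeting with Cre removal of the selection cassette, and no second line of either genotype is described for the arrays, so line and genotype cannot be told apart. The null allele still gives a transcript with a premature stop. The study calls the 3 arrays of a group biological replicates but does not say that they were separate cultures, so p-values here measure the spread of these arrays, possibly technical in part.

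Polycomb repressive complex 1 (PRC1) marks H2A with a single ubiquitin (H2AK119ub) at silent developmental genes and, at lower density, across the genome, and its level is the balance of this writing and of removal. BAP1 is the catalytic subunit of the Polycomb repressive deubiquitinase PR-DUB, which needs an ASXL protein to be active. USP16, USP21 and MYSM1 are further enzymes that cleave ubiquitin from H2A, USP16 around mitosis and MYSM1 as a metalloprotease known for its part in blood cell formation, while USP22 is the enzyme of the SAGA coactivator and works on H2B as well as on H2A. In mESCs, BAP1 is known to limit the spread of H2AK119ub away from Polycomb targets.

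The arrays read each transcript through probes of 60 bases. The final 30 bases of the probes on which the results turn are shown because 2 probes of 1 gene did not always behave alike. Capitals mark AATAAA, the usual signal for cleavage and polyadenylation, searched for on the printed strand only.

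Usp16 probe A_55_P2126109: tgcttgacacatcAATAAActgatattccc
Usp16 probe A_55_P1961059: atacacctatggcttttatactggctatta
Asxl2 probe A_55_P2003246: tggtgtcaatgccatttaataagtcatatt
Asxl2 probe A_55_P2447879: aaactgacagcttcctcaagtgatcccaaa
Usp22 probe A_52_P413623: agaaaaatcctcttttgagtacagctgagc
Mysm1 probe A_55_P2045952: atgctgtcaattcaatgtaagcaaatgtta

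AATAAA stood in 5 of the 12 probes (those of Asxl1 and Usp21, 1 of Usp16 and 2 of Asxl3) and in 12.1% of all probes of the table. The bright Usp16 probe ends in AATAAActgatattccc and is assigned to 1 Ensembl transcript, whereas the other Usp16 probe holds no such signal and is assigned to 4. For Asxl2 the bright probe is assigned to 2 Ensembl transcripts and the dim probe to 6. In the Asxl1 probe the signal lies within bases 28 to 57, tggtattggaaaAATAAAcctgtacaacct.

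Levels below are log2 signals after quantile normalisation, with arrays in the order 1, 2, 3. Differences are log2 fold changes (log2FC) with 95% intervals (CI) from 1 limma fit over all 9 arrays, and adjusted p-values are Benjamini-Hochberg values over all probes of the table. A call needed an adjusted p under 0.05 together with a difference exceeding 2-fold. Since arrays carry bulk RNA, fewer cells of a type and less RNA per cell cannot be told apart. The level of 1 probe says nothing against that of another, so genes are compared between groups and not with each other.

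None of the 8 genes was called by limma in any of the 3 comparisons. In KO against WT, where limma called 3.84% of all probes, 0 of 8 genes passed, and 3 of 8 had an unadjusted p under 0.05 (Usp22 with a positive, Asxl2 and Mysm1 with a negative log2FC), against 17.4% of all probes (9.64% positive and 7.77% negative). In I53A against WT, with 0.328% of probes called, 0 of 8 passed and 1 (Mysm1, negative) had an unadjusted p under 0.05, against 9.2% (3.83% negative). In KO against I53A, with 1.33% called, 0 of 8 passed and 0 of 8 had an unadjusted p under 0.05, against 11.3%. KO and I53A were both compared with the same 3 WT arrays, so those comparisons share their control.

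**Figure D1:**
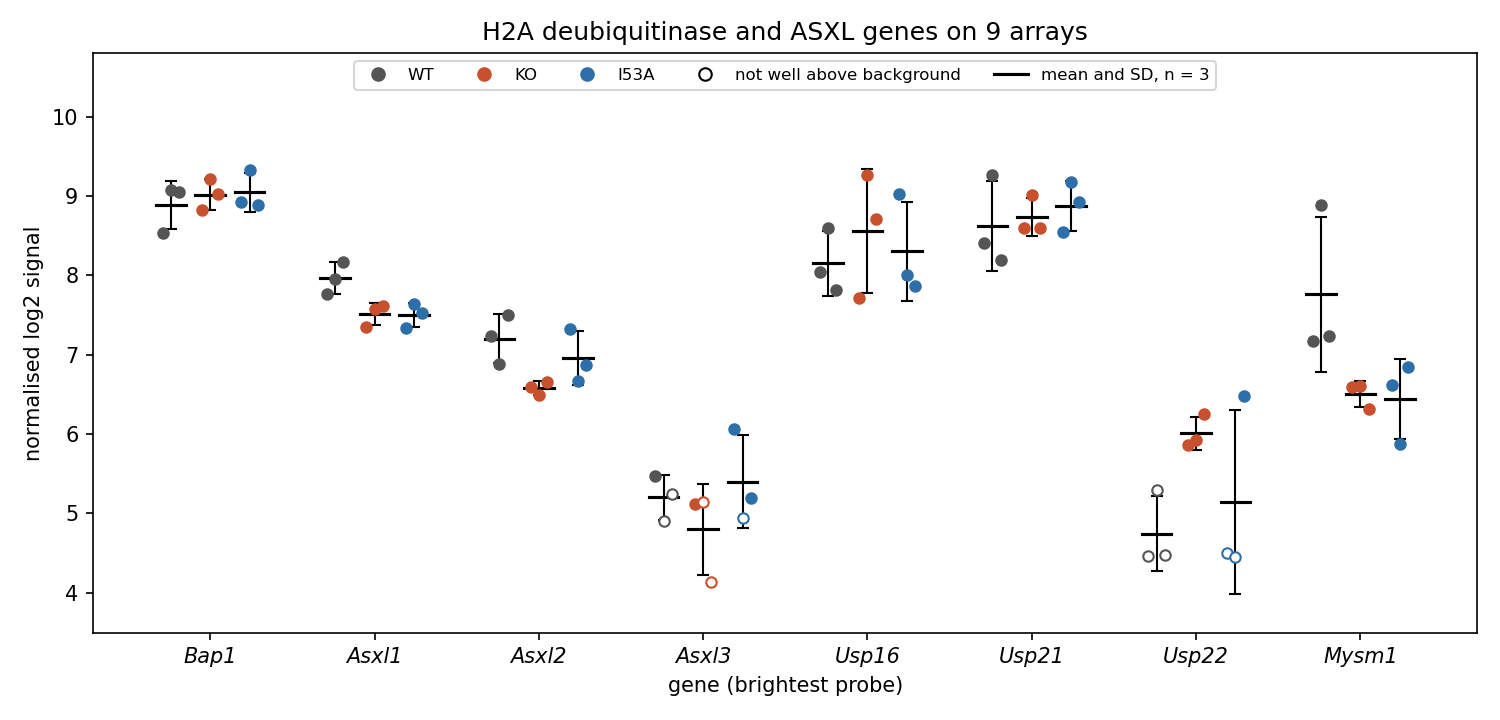
Normalised log2 signal of the brightest probe of each gene (y axis) on the 9 arrays, by gene (x axis) and group, with filled points well above background, open points not, bars giving mean and SD over 3 arrays. Mysm1 lay between 7.17 and 8.89 in WT and no higher than 6.84 in both mutants, and Usp22 was filled on all 3 KO arrays, no WT array and 1 I53A array.

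Bap1 (chromosome 14, 31251352 to 31259930, GRCm38.p6 as for all positions here), the catalytic subunit itself, differed between the 3 lines by less than the spread between arrays of 1 line. Its log2 signal was 8.53, 9.07 and 9.05 in WT, 8.82, 9.21 and 9.02 in KO and 8.92, 9.33 and 8.88 in I53A. The 3 groups overlapped throughout. The log2FC was 0.13 in KO against WT (CI −0.41 to 0.68, limma adjusted p 0.842), 0.16 in I53A against WT (CI −0.39 to 0.71, adjusted p 0.898) and −0.03 in KO against I53A (CI −0.57 to 0.52). All 3 intervals lay within 2-fold, so a change of that size in Bap1 transcript was outside what the arrays allowed at 95% confidence, whereas a smaller one was not.

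The 3 ASXL genes encode scaffolds that bind BAP1 and stimulate its activity. Asxl1 (chromosome 2, 153345830 to 153404007) measured 7.77, 7.95 and 8.17 in WT, 7.35, 7.57 and 7.61 in KO and 7.34, 7.64 and 7.52 in I53A. Every KO and every I53A array lay below every WT array, by a small margin. The log2FC was −0.46 in KO (CI −0.93 to 0.02, limma adjusted p 0.31) and −0.47 in I53A (CI −0.94 to 0.01, adjusted p 0.555), and the mutants differed from each other by 0.01 (CI −0.47 to 0.49). With normexp background correction in place of the processed signal the KO value came to −0.17, and with 75th percentile scaling to −0.25.

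Asxl2 (chromosome 12, 3426857 to 3510811), by its bright probe, measured 7.23, 6.88 and 7.50 in WT, 6.59, 6.49 and 6.66 in KO and 7.33, 6.67 and 6.87 in I53A. All KO values lay below all WT and all I53A values, while WT and I53A overlapped. The log2FC of −0.62 in KO against WT (CI −1.18 to −0.06) did not pass after adjustment (limma adjusted p 0.23), nor did −0.24 in I53A against WT (CI −0.80 to 0.32, adjusted p 0.82) or −0.38 in KO against I53A (CI −0.94 to 0.18, adjusted p 0.658). The second Asxl2 probe, whose last 30 bases stand above, pointed the other way. It was not well above background on any WT array (4.49, 4.41 and 4.91), well above it on 1 KO array (4.72, 5.34 and 5.48, the middle value) and on 2 I53A arrays (5.36, 4.59 and 4.95, all but the middle value). Its fitted fold over WT was 1.49 in KO (interval 0.953 to 2.34, limma adjusted p 0.347) and 1.29 in I53A (interval 0.821 to 2.02, adjusted p 0.755), both intervals include no change, and the groups overlapped. With both probes averaged the KO difference was −0.02, so the 2 probes gave no common direction for Asxl2.

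Asxl3 (chromosome 18, 22344077 to 22530227), the family member best known from neural tissue, was near the limit of detection. Its brightest probe, A_66_P103654, measured 5.47, 4.90 and 5.24 in WT, 5.12, 5.14 and 4.14 in KO and 6.06, 4.94 and 5.20 in I53A. It was well above background on 1 WT, 1 KO and 2 I53A arrays, and the groups overlapped. The log2FC was −0.40 in KO (CI −1.21 to 0.40, limma adjusted p 0.629), 0.20 in I53A (CI −0.61 to 1.00, adjusted p 0.921) and −0.60 in KO against I53A (CI −1.41 to 0.21, adjusted p 0.617). The other 2 Asxl3 probes lay between 2.25 and 3.41 and were not well above background on any of the 9 arrays, so they gave no fold.

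**Figure D2:**
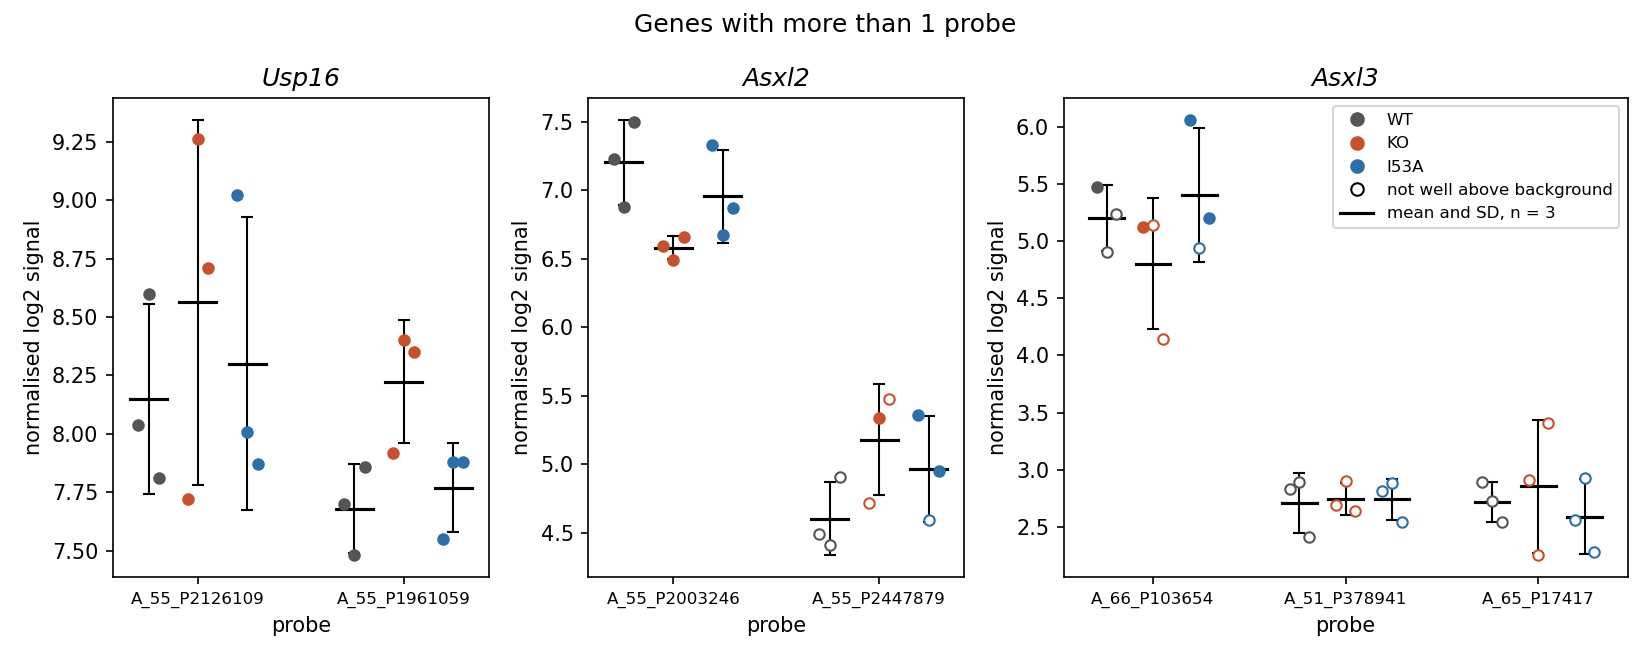
Normalised log2 signal (y axes, a scale of its own for each gene) of every probe (x axes) of the 3 genes with more than 1 probe, by group, with filled points well above background, open points not, bars giving mean and SD over 3 arrays. In KO against WT the Asxl2 probes had log2FC of opposite sign (−0.62 and 0.58) and the Usp16 probes of the same sign (0.42 and 0.54), and 2 of the 3 Asxl3 probes stayed at or under 3.41.

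Usp16 (chromosome 16, 87454985 to 87483515) encodes the H2A deubiquitinase needed for chromosome segregation and, in mESCs, known to oppose Polycomb at genes of differentiation. Its bright probe measured 8.04, 8.60 and 7.81 in WT, 7.72, 9.26 and 8.71 in KO and 9.02, 8.01 and 7.87 in I53A. The arrays of each group were widely spread and the groups overlapped, giving a log2FC of 0.42 in KO (CI −0.54 to 1.37, limma adjusted p 0.683), 0.15 in I53A (CI −0.81 to 1.11) and 0.27 in KO against I53A (CI −0.69 to 1.22). The KO value was 0.84 without KO 1 and 0.07 without KO 2. The probe assigned to 4 transcripts was tighter. It measured 7.70, 7.48 and 7.86 in WT, 7.92, 8.40 and 8.35 in KO and 7.55, 7.88 and 7.88 in I53A, so that each KO array lay above each array of both other groups. Its log2FC was 0.54 in KO against WT (CI 0.03 to 1.06, limma adjusted p 0.258), 0.09 in I53A against WT (CI −0.43 to 0.60, adjusted p 0.947) and 0.45 in KO against I53A (CI −0.06 to 0.97, adjusted p 0.518), none of which passed.

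Usp21 (chromosome 1, 171281949 to 171287961), whose product relieves the block that H2A ubiquitin puts on H3K4 methylation, showed no separation of groups. It measured 8.41, 9.26 and 8.19 in WT, 8.60, 9.01 and 8.60 in KO and 8.54, 9.17 and 8.92 in I53A, with array 2 the highest of each group. The log2FC was 0.12 in KO (CI −0.58 to 0.81, limma adjusted p 0.902), 0.26 in I53A (CI −0.44 to 0.95, adjusted p 0.857) and −0.14 in KO against I53A (CI −0.83 to 0.55, adjusted p 0.937). All 3 intervals excluded a 2-fold change.

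Mysm1 (chromosome 4, 94942037 to 94979155) had the most negative log2FC of the 8 genes against WT in both mutants. It measured 7.17, 8.89 and 7.23 in WT, 6.59, 6.60 and 6.31 in KO and 6.62, 5.88 and 6.84 in I53A, well above background on all 9 arrays. All 6 mutant arrays lay below all 3 WT arrays, and WT 2 stood far above the other WT arrays. The log2FC was −1.27 in KO against WT (SE 0.44, CI −2.25 to −0.29, limma adjusted p 0.16) and −1.32 in I53A against WT (CI −2.30 to −0.34, adjusted p 0.366), and neither passed. The absolute change was larger than that of 95.7% of all probes in KO and 98.7% in I53A. KO and I53A differed by 0.05 (CI −0.93 to 1.03, adjusted p 0.986), an interval that reaches 2-fold above. Without WT 2 the value was −0.70 in KO (adjusted p 0.338, with 0.0737 to 0.443 over 17 alternatives) and −0.75 in I53A (adjusted p 0.65, with 0.164 to 0.696). WT 2 was also the array with the lowest share of tested probes well above background (45.4%), and the part of this in the Mysm1 value was not tested.

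Usp22 (chromosome 11, 61151781 to 61175059) was the only gene of the 8 that was not well above background in WT and was so on all KO arrays. It measured 4.47, 5.29 and 4.48 in WT, 5.86, 5.93 and 6.25 in KO and 4.50, 4.45 and 6.48 in I53A, where only array 3 was well above background. KO lay above WT on every array, and I53A was split between the level of WT on 2 arrays and a value above all KO arrays on 1. The fitted KO difference from WT was 2.4-fold, a log2FC of 1.26 (SE 0.49, CI 0.17 to 2.36, limma adjusted p 0.212) that did not pass, and since no WT signal lay under the lowest signal well above background on its array, it is the fold of the means and no lower bound. With normexp background correction it was 0.44. The I53A difference from WT was 0.40 (CI −0.70 to 1.49, adjusted p 0.863) and KO against I53A was 0.87 (CI −0.23 to 1.97, adjusted p 0.581). Array I53A 3 decided the call, since leaving it out of the fit left the KO difference at 1.26 with an adjusted p of 0.0387 (0.0387 to 0.43 over 17 alternatives). Without it the I53A difference turned to −0.27 (adjusted p 0.857) and KO against I53A came to 1.54 (adjusted p 0.062).

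Chromosome 11, which carries Usp22, had a higher median in the KO arrays. Over its 839 genes well above background on all 9 arrays, the median log2FC was 0.29 in KO against WT (quartiles −0.08 and 0.66), against −0.08 for the genes of other chromosomes. Each KO array showed it, with medians of 0.26, 0.27 and 0.34 relative to the WT mean, and the I53A arrays did not, with −0.04, 0.01 and −0.01. The Usp22 value of 1.26 lay above the upper quartile of these genes. Usp22 is not one of them, since it was not well above background on every array, so the values are not of like brightness. The part of the chromosome-wide shift in the Usp22 value was not tested. For the chromosomes of the other 7 genes the median log2FC in KO lay between −0.16 and 0.02.

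**Figure D3:**
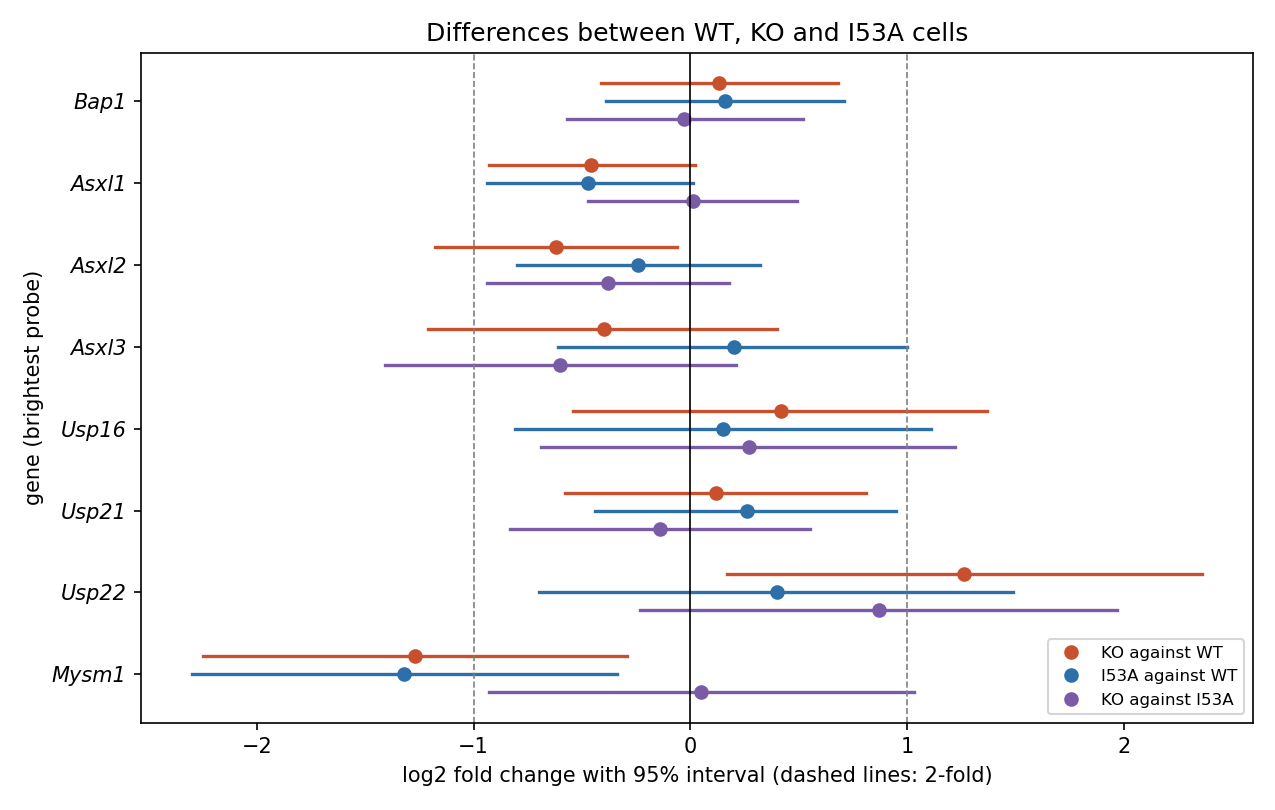
Log2 fold change (x axis) of the brightest probe of each gene (y axis) with its 95% interval from the limma fit over 9 arrays, for the 3 comparisons (coloured as in the key), with dashed lines at 2-fold. Intervals against WT left 0 outside for Asxl2 (KO), Usp22 (KO) and Mysm1 (KO and I53A), and none of these passed after adjustment.

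Across the 8 genes the median log2FC was −0.14 in KO against WT, 0.16 in I53A against WT and −0.01 in KO against I53A, beside −0.02, −0.01 and −0.02 for all genes. The number of genes with a positive value was 4, 5 and 4 of 8, so the group had no shared direction. Groups did not overlap for 4 of 8 genes in KO against WT (Usp22 higher, Asxl1, Asxl2 and Mysm1 lower), beside 24.1% of all probes (11.6% higher, 12.5% lower), for 2 of 8 in I53A against WT (Asxl1 and Mysm1 lower), beside 17.4% (9.34% lower), and for 1 of 8 in KO against I53A (Asxl2 lower), beside 15% (7.43% lower). The 95% interval stayed within 2-fold for 3, 4 and 4 of the 8 genes, beside 46.2%, 54% and 52.4% of all genes. For the remaining genes the arrays did not exclude a 2-fold difference.

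The arrays lay on 2 slides, and each difference was also taken within a slide. On slide 1, which held 2 arrays of each group, the KO log2FC was −0.27 for Asxl1, −0.48 for Asxl2, 1.21 for Usp22 and −1.58 for Mysm1. On slide 2, with 1 array of each group and hence no test, it was −0.82, −0.91, 1.38 and −0.65. Since KO and WT did not overlap for these 4 genes, their sign on each slide was fixed by that choice. For the others the slides differed in sign in KO against WT for Bap1 (0.31 and −0.22), Usp16 (0.67 and −0.09) and Usp21 (−0.03 and 0.41), and not for Asxl3 (−0.54 and −0.13). In I53A, Mysm1 came to −1.78 on slide 1 and −0.39 on slide 2, whereas Usp22 was −0.41 on slide 1 and 2.00 on slide 2, opposite in sign. With slide as a block, no gene was called in any comparison.

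The genes most like 5 of the members in level over the 9 arrays, among 9885 genes well above background on all of them, are given as a description, since 9 arrays in 3 groups share their group effects. Golph3l followed Asxl1 (Pearson r 0.968), Pelp1 followed Usp16 (0.972) and Gtf3c2 followed Usp21 (0.936). Mysm1 was closest to the pseudogene Tdg-ps2 (0.931) and Bap1 to Eif2b1, a subunit of a translation initiation factor (0.925). Among themselves the 6 members well above background on all arrays gave r between −0.65 (Asxl2 and Usp21) and 0.57 (Bap1 and Usp21, and Asxl1 and Mysm1).

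A promoter window of 300 bases, 250 before and 50 after the start, was listed for 6 of the 8 genes in RefSeq (GRCm38.p6), the exceptions being Usp22 and Asxl3. The windows of Bap1 (31251239 to 31251538) and Mysm1 (94979051 to 94979350) are placed on a start that lies inside the gene bounds printed above. All 6 windows met a CpG island-like criterion of more than 50% G and C and an observed to expected CpG ratio above 0.6, which 33.3% of the 32851 windows of all genes met. CpG islands are where Polycomb complexes chiefly bind in mESCs. CpG dinucleotides numbered 50 in the Bap1 window, 36 in that of Asxl2, 25 for Mysm1, 18 for Usp21, 17 for Usp16 and 13 for Asxl1, with a median of 7 over all windows. The 250 bases before the start are shown for Asxl1 and Asxl2, the BAP1 partners with the lowest count and with a high one, each CG in capitals (read as CG, the same on both strands).

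Asxl1 chr2:153345580-153345829 (+ strand): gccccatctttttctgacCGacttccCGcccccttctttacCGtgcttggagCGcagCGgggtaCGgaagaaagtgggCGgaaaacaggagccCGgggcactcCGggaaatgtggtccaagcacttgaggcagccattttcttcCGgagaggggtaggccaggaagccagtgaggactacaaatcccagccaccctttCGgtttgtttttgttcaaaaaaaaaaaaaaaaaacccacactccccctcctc
Asxl2 chr12:3426607-3426856 (+ strand): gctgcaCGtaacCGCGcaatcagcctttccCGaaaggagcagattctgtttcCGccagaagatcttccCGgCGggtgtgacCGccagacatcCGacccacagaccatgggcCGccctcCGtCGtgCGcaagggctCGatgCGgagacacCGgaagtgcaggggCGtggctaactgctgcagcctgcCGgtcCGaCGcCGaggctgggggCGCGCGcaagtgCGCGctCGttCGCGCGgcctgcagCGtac

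These stretches held 11 and 31 CpG. They describe where the genes start and carry no measurement of H2AK119ub or of any factor.

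Around the 8 genes, the other parts of the H2A ubiquitin cycle were read from 7 lists, and of 59 genes 56 were measured, of which limma called 0 in each comparison (2 or fewer of a list in either direction at an unadjusted p under 0.05, apart from 3 higher in the SAGA list in KO against WT). Each list gene was read by its brightest probe alone. The other probes of list genes with more than 1, such as Atxn7l3b and Usp51 (2 each), are not given. BAP1 complex partners such as HCF-1, OGT and the FOXK factors (9 of 9 measured) had a median log2FC of −0.03 in KO, 0.06 in I53A and 0.06 in KO against I53A. The lowest p in KO was that of Kdm1b, which encodes an H3K4 demethylase, at 0.90 (4.94 ± 0.52 in WT, mean ± SD of 3 arrays, and 5.84 ± 0.43 in KO, limma adjusted p 0.168). Kdm1b was well above background on only 1 WT array, and on 3 KO arrays. In I53A the lowest p was that of Ogt, the gene for the O-GlcNAc transferase that modifies HCF-1, at −0.54 (adjusted p 0.581). In KO against I53A it was Ube2o, whose product ubiquitinates BAP1, at 0.81 (10.98 ± 0.16 and 10.17 ± 0.49, adjusted p 0.239), and Ube2o is a chromosome 11 gene like Usp22.

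USP22 works within the deubiquitinase module of SAGA, with ATXN7L3 and ENY2. For this module and the USP22 relatives (11 of 11 measured), 3 genes had a positive and 2 a negative log2FC at an unadjusted p under 0.05 in KO against WT (9.64% and 7.77% of all probes), 2 and 0 in I53A against WT (9.2% of all probes in either direction) and 0 and 2 in KO against I53A (11.3%). The brightest of the 3 probes assigned to Eny2 had a log2FC of 0.89 in KO (limma adjusted p 0.196) and 0.96 in I53A (adjusted p 0.387). The deposited annotation places this probe on chromosome X, and whether it reads Eny2 itself was not established. It is among the positive values counted above for both mutants. Atxn7l3b, known to compete with ATXN7L3 for ENY2, averaged 11.15 ± 0.17 in WT against 10.50 ± 0.13 in KO and 11.33 ± 0.09 in I53A, with a log2FC of −0.65 in KO against WT (adjusted p 0.121) and −0.83 in KO against I53A (adjusted p 0.103). Tada1, a SAGA adaptor gene, was not well above background on any WT array (3.84 ± 0.88). It was so on 2 KO arrays (4.87 ± 0.19) and 2 I53A arrays (5.76 ± 0.30). With dim WT signals raised to the lowest signal well above background, the means differed 1.59-fold in KO and 2.95-fold in I53A. The fitted log2FC had a CI of 0.16 to 1.90 in KO (limma adjusted p 0.198) and 1.05 to 2.79 in I53A (adjusted p 0.0936), and neither passed. In KO against WT the log2FC was −0.04 for Atxn7l3, on chromosome 11, and −0.04 for Usp27x. Usp51 was 1 of the 2 negative genes counted above, at −0.77 (CI −1.42 to −0.12, limma adjusted p 0.198), opposite in sign to Usp22. None of these was called in any comparison.

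Of other deubiquitinases reported to act on H2A (8 of 9 measured), Brcc3, which trims ubiquitin chains at DNA breaks, had the lowest p in each comparison. The WT level of 8.47 ± 0.26 compared with 7.64 ± 0.05 in KO and 8.02 ± 0.13 in I53A, with log2FC of −0.83 (adjusted p 0.0645), −0.45 and −0.38. Among the H2AK119ub readers (4 of 4 measured), Rsf1, a remodeller subunit that binds the mark, was at 8.28 ± 0.09, 7.45 ± 0.03 and 7.92 ± 0.22, a log2FC of −0.83 in KO (adjusted p 0.0537) and −0.46 in KO against I53A (adjusted p 0.437). The Rsf1 values are from the brightest of 3 probes. Aebp2, a PRC2 subunit, had the lowest p of that list in I53A (0.69, adjusted p 0.631). The adjusted p of these 2 KO values was the lowest among the pathway genes measured, and both changes were under 2-fold.

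The writers of the mark (14 of 14 measured) had medians of 0.03, 0.02 and 0.03. For Rnf2 itself the WT level was 8.35 ± 0.11, beside 7.78 ± 0.39 in KO and 8.79 ± 0.27 in I53A. Its log2FC was −0.57 in KO against WT (adjusted p 0.288) and −1.01 in KO against I53A (adjusted p 0.112), and since the place of its probe relative to exon 3 was not established, this level does not check the labels. Yaf2, a subunit of variant PRC1, had a log2FC of 0.68 in KO (adjusted p 0.228) and 0.83 in I53A (adjusted p 0.357). Other H2A ubiquitin ligases (7 of 8 measured) included the DNA damage ligases Rnf168 and Rnf8. Rnf168 was well above background on 2 WT arrays and no KO array, and Rnf8 on 2 WT arrays and no array of either mutant. With dim signals raised as for Tada1, the WT mean of Rnf168 was 1.88-fold that of KO. That of Rnf8 was 1.98-fold that of I53A. The fitted log2FC had a CI of −1.59 to −0.26 for Rnf168 in KO (limma adjusted p 0.127). For Rnf8 in I53A the CI was −1.87 to −0.47 (adjusted p 0.213). The KO value of Rnf8 against WT was −0.18 (CI −0.88 to 0.52, limma adjusted p 0.831), so the detection flags alone set KO apart from WT. Rnf8 also had the lowest p of that list in KO against I53A, with no fold given since neither group was well above background. Of the ubiquitin genes (3 of 4 measured), Rps27a, which encodes ubiquitin fused to a ribosomal protein, had the lowest p in I53A (log2FC −0.19, limma adjusted p 0.834). This value is from the brightest of 3 probes assigned to Rps27a. The deposited annotation places that probe on chromosome 6, and whether it reads Rps27a itself was not established.

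**Figure D4:**
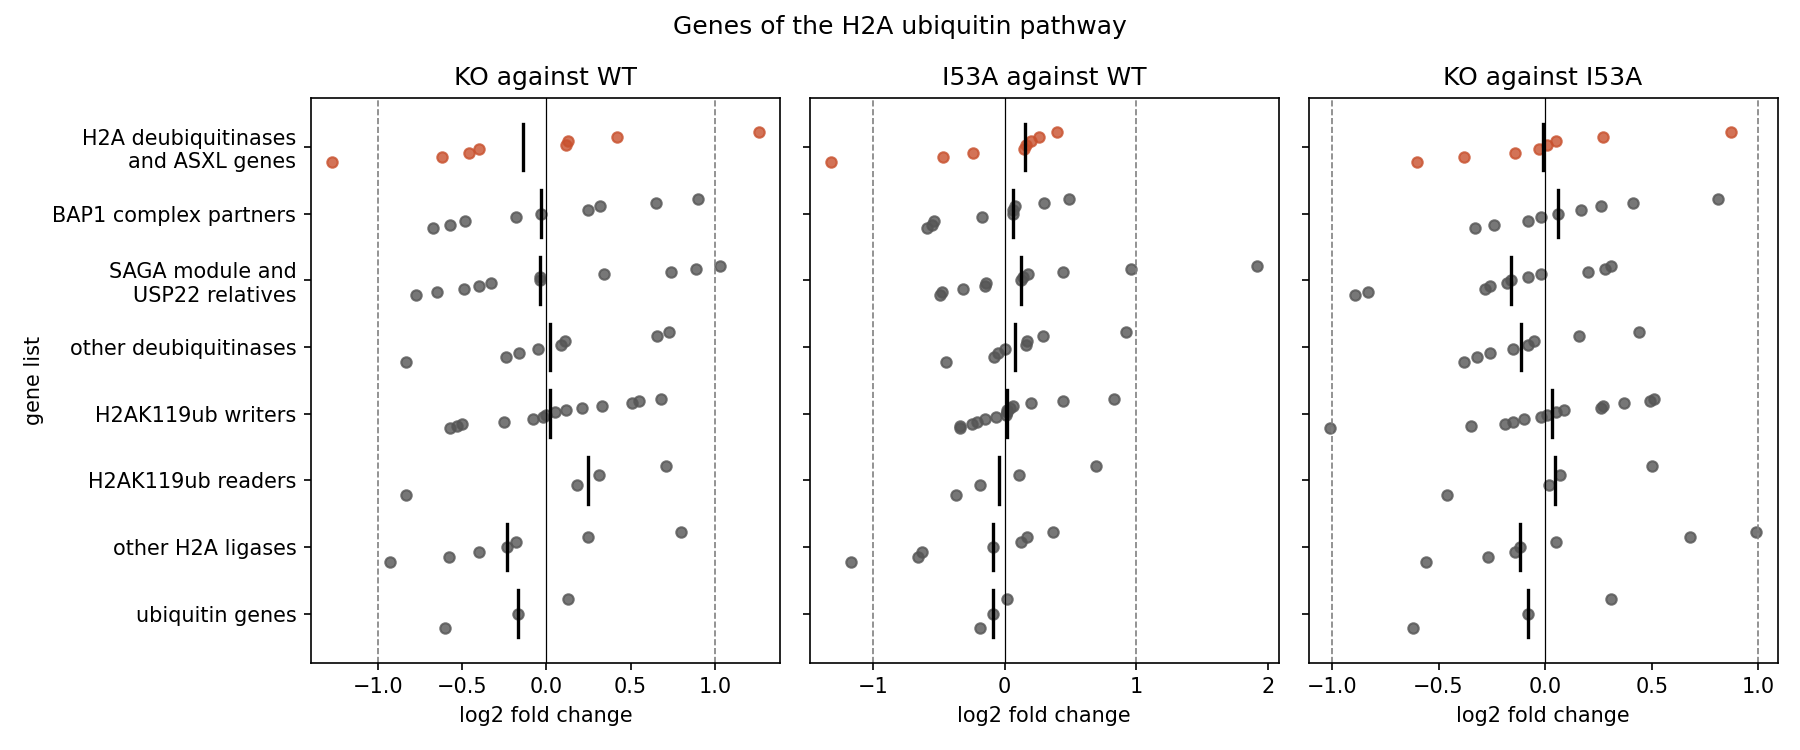
Log2 fold change (x axes, 1 panel for each comparison) of every measured gene of the 8 deubiquitinase and ASXL genes and of 7 lists of the H2A ubiquitin pathway (y axis), with a black bar at each list's median and dashed lines at 2-fold. List medians lay between −0.23 and 0.25, and the fitted values past 2-fold were those of Mysm1, Usp22, Tada1, Rnf8 and Rnf2, none of them called (those of Usp22, Tada1 and Rnf8 rest on a group not well above background).

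Markers of the cell types the cultures could hold were measured as well. Of 8 embryonic stem cell markers, 7 were measured, all well above background on the arrays that gave a value, and in KO against WT they went both ways, 3 upward and 2 downward by an unadjusted p below 0.05. Sox2 was called lower (log2FC −1.03, limma adjusted p 0.0425), while Nanog (1.06, adjusted p 0.141), Tdgf1 (0.95, 0.114), Klf4 (0.67, 0.158) and Esrrb (−0.92, 0.238) did not pass. Nanog had no value on WT 3 and I53A 3, and Tdgf1 none on I53A 3. The summed linear signal of all 7 was 36300 to 44300 on 2 WT arrays, 46800 to 48800 on 3 KO arrays and 38100 to 42900 on 2 I53A arrays, and without Nanog and Tdgf1 it was 23600 to 27900, 20700 to 22100 and 23200 to 25900 on 3 arrays each, so the order of KO and WT turned with those 2 markers. Of 7 primitive endoderm markers, 3 were called higher in KO against WT. Gata6 was well above background on 1 WT array and 3 KO arrays (log2FC 2.09, adjusted p 0.00651) and was also called in KO against I53A (1.85, adjusted p 0.0273). Gata4 (1.72-fold with dim WT signals raised, limma adjusted p 0.00651) and Sox17 (2.06-fold, 0.00899) were not well above background on any WT array. They were so on 2 and 1 KO arrays, so these folds are no lower bounds. Sox7 (log2FC 0.98), Foxa2 (1.07), Pdgfra (−0.03) and Dab2 (−0.48) were not called and were not well above background on any array. The list summed to 70.8 to 102 in WT, 197 to 255 in KO and 88.7 to 101 in I53A. Gata6 had the highest KO mean of the 7 (6.88), so the sum does not show that the list moved together. Of 8 fibroblast markers, Fbln2 was called higher in KO (2.7-fold with dim WT signals raised, limma adjusted p 0.0131). Fbln2 was well above background on 2 KO arrays and no WT array. The fibroblast list summed to 390 to 427 in WT, 278 to 312 in KO and 322 to 394 in I53A. The part of these differences in the values of the 8 genes was not tested.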

How the data were processed

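Cy3-labelled cRNA of each sample was hybridised to 1 Agilent mouse 8x60K array. The authors extracted spots with Feature Extraction 11.5.1.1, and each deposited scan file gives a processed intensity, background-subtracted on a linear scale. The deposited series table holds the authors' quantile-normalised log2 values of 30170 probes, with columns of their own means, fold changes and p-values that were not used. Of these probes, 26929 were given a gene symbol, 24558 directly by accession or symbol and the rest through their Ensembl gene.

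Control and outlier-flagged spots were left out (62976 spots an array, 3671 controls, 0.4 to 0.548% outliers, 5 to 9 saturated spots). Processed intensities were log2 transformed, repeated probes averaged (432 probes), and 55681 probes quantile normalised. The table's probes were fitted in limma 3.58.1 (R 4.3.3), with 1 coefficient for each group, moderated tests and 6 residual degrees of freedom. The code was tested on simulated data. Between 45.4 and 57.5% of the fitted probes lay well above background, which with 3 arrays a group limits the precision. Slide 1 held 6 arrays and slide 2 held 3, and slide column cannot be told apart from group. A fold with dim signals raised is given for list genes. It sets the dim group's signals to no less than the lowest signal well above background on that array. It is a fold of group means and takes no account of the spread between arrays, which the CI does. Signals of the other group were not raised, so it is no lower bound where that group held an array not well above background. For the normexp alternative (offset 50), spot medians replaced spot means.

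Members and lists were chosen with earlier results of these data known. Named were all 8 members, called list genes, the lowest p of each list and comparison, and the most correlated gene, apart from results not reported here. Further genes (Atxn7l3, Eny2, Usp27x, Usp51, and the stem cell and primitive endoderm markers that were not called) were named after their values were seen. Alternatives were 75th percentile scaling, normexp, leaving out dim probes, slide as a block, slide 1 alone, the replicate block, the deposited log2 values, the mean of all probes and leaving out each array.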

Additional observations from a re-analysis of the deposited data

How the results depend on the processing

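No gene of the 8 was called in any of the 3 comparisons under any of the 8 alternatives other than leaving out an array. Leaving out each array gave 0 to 1 genes called in KO against WT, the 1 being Usp22 without I53A 3 (1.26, limma adjusted p 0.0387), and 0 to 0 in the other comparisons. Directions turned as follows, always for values that did not pass. On slide 1 alone Usp21 in KO came to −0.03 and Usp22 in I53A to −0.41. With the mean of all probes Asxl2 in I53A came to 0.06. With 75th percentile scaling Bap1 and Usp21 in KO against I53A came to 0.22 and 0.11, and with normexp Asxl1 in KO against I53A to −0.09. Normexp also brought Mysm1 to −0.45 in KO and −0.57 in I53A and Usp22 to 0.44 in KO. The cause was not tested. Leaving out each array in turn gave ranges across 0 for Bap1 (−0.04 to 0.23 in KO, −0.01 to 0.25 in I53A, −0.12 to 0.12 in KO against I53A), Usp21 (−0.10 to 0.44 in KO, −0.31 to 0.01 in KO against I53A), Usp16 (−0.21 to 0.37 in I53A, −0.08 to 0.69 in KO against I53A), Asxl3 (−0.13 to 0.43 in I53A), Usp22 (−0.27 to 0.74 in I53A), and Asxl1 and Mysm1 (−0.07 to 0.09 and −0.23 to 0.25 in KO against I53A). Of the gene values, 382 kept their direction and side of the threshold, 22 turned and 1 gained a call. Asxl3 gave no value once dim probes were left out. The replicate numbers did not pair the arrays (same-number correlations −0.39 to 0.38, and 2 of 9 arrays correlated best with their own number). With the replicate block 0 of 8 genes were called in each comparison, and calls over all probes went from 1159 to 797, 99 to 25 and 400 to 194. Those counts were 326, 46 and 132 with normexp and 332, 2 and 63 on slide 1 alone, and in I53A against WT 44 with 75th percentile scaling and 266 without dim probes. Leaving out each array lowered them to no less than 610, 22 and 181.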
